A study of Mus musculus with 9 samples.

Results

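The expression of 10 genes associated with T-cell exhaustion was followed in the murine T-cell lymphoma line T15: the inhibitory receptor genes Pdcd1, Havcr2, Tigit, Lag3, Ctla4, Btla and Cd160, the ectonucleotidase gene Entpd1, and the transcription factor genes Tox and Tox2. They were taken by name from the 35288 genes in the count table, through their Ensembl identifiers. The choice was made with earlier results of these data known. Of the 10 genes, 6 passed the filter on low counts and were tested with 13697 genes in all, while Ctla4, Btla, Cd160 and Entpd1 did not pass. T15 is a Smarcb1-negative peripheral T-cell lymphoma (PTCL) line and all 9 libraries come from it, so no library represents a T cell with its own intact Smarcb1. In the mouse model of this lymphoma, Cre recombinase under Cd4 control deletes a floxed Smarcb1. There were 3 libraries each of control cells, of cells that received repeated doses of SAHA (1 µM, over 72 h), an inhibitor of histone deacetylases also called vorinostat, and of Smarcb1-RE cells. The latter were transduced with a lentiviral, doxycycline (Dox)-inducible Smarcb1 cDNA (plasmid pInducer20), selected with G418 and induced with Dox (0.5 µg/µl, 72 h). The labels mention both a vehicle and a control plasmid and do not say which of them the 3 control libraries received, and they do not say from which clone or clones the Smarcb1-RE libraries came. Transduction, selection and Dox therefore cannot be told apart from Smarcb1 itself in the comparisons that involve Smarcb1-RE. In SAHA against control, any difference in plasmid or vehicle likewise cannot be told apart from SAHA.

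Inhibitory receptors are brakes on T-cell activation. PD-1 (Pdcd1), Tim-3 (Havcr2), Tigit, Lag-3, Ctla-4, Btla and Cd160 sit on the cell surface, bind ligands on neighbouring cells and recruit phosphatases or adaptors that dampen signals from the T-cell receptor, or compete with a costimulatory receptor for its ligand. They appear on activated T cells and stay on T cells that are stimulated for a long time, a state called exhaustion. Tox and Tox2 are HMG-box DNA-binding proteins that establish and maintain that state, and Entpd1 (CD39) degrades extracellular ATP in the first step towards adenosine.

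The promoter windows of the receptor genes Pdcd1, Havcr2 and Tigit, which have the widest spread between group means among those averaging 1 log2 CPM or more, are shown because Pdcd1 and Havcr2 rose together in Smarcb1-RE cells and Tigit did not. Each window of 300 bases spans the RefSeq start (GRCm38.p6), is written 5′ to 3′ on the strand of the gene, and has matches to any of 7 short motifs in capitals. The last bases of the Pdcd1 and Havcr2 windows matched the start of a GENCODE transcript. Those of the Tigit window did not, so the start of Tigit is less certain.
Pdcd1, chr1:94052504-94052803, minus strand: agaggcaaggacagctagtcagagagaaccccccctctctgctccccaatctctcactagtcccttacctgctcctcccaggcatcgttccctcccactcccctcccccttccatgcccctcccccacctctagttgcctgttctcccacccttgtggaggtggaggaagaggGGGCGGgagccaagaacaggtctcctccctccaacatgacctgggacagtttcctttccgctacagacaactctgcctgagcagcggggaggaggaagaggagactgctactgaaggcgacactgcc
Havcr2, chr11:46454681-46454980, plus strand: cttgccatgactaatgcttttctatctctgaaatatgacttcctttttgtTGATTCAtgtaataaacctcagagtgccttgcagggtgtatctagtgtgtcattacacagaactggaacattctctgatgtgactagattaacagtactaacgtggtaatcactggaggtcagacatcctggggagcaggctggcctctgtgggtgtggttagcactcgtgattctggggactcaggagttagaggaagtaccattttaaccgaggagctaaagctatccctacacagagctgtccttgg
Tigit, chr16:43664135-43664434, minus strand: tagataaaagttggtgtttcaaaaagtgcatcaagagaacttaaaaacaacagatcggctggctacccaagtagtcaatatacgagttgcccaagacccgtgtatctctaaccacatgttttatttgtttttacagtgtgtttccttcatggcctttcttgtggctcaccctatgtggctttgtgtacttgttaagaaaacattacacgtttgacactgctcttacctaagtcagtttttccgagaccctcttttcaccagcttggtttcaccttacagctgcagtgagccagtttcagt
The motifs, searched on both strands, were AP-1 (TGANTCA), the NFAT core (TGGAAA), the NR4A element (AAAGGTCA), the TCF/LEF core (CTTTGA), a T-box half-site (AGGTGTGA), an interferon response core (TTTC, any 2 bases, TTTC) and the GC box (GGGCGG). The Pdcd1 window held 1 match, a GC box, which is present in 35.7% of all 32851 windows of this length. The Havcr2 window held 1 AP-1 match, a motif found in 7.81% of windows, and the Tigit window held none of the 7. The windows differed in base composition, with a GC content of 60.7% for Pdcd1, 45.3% for Havcr2 and 41.3% for Tigit, against a median of 52.7% over all windows. They had 5, 3 and 5 CpG sites, whereas the Tox2 window at chr2:163202877-163203176 had 38 and a GC content of 77.0%. A match describes the letters of a window and is no evidence of binding. Windows were found for 8 of the 10 genes, and not for Tox and Lag3.

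Library totals ranged from 20900477 to 24941494 counts, and a gene with 3 counts in a library corresponds to between 0.123 and 0.133 CPM (counts scaled to a common library total), for counting error only. Smarcb1 itself had 2, 5 and 8 counts under control, 7, 13 and 3 under SAHA and 151, 147 and 142 after re-expression, so the group labelled as re-expressing the gene had the most. Its log2 fold change was 4.89 (SE 0.36, adjusted p = 6.19e-08, edgeR) in Smarcb1-RE and 0.66 (SE 0.52, adjusted p = 0.285) in SAHA. Of 16 T-cell marker genes, Cd4, Cd2 and Cd5 were at or under 3 counts in every library, and the highest were Cd8a (690 CPM in control) and Cd8b1 (592 CPM). The summed level of these 16 markers was between 4770 and 5150 CPM in control, 4870 and 4940 CPM in SAHA and 4590 and 4660 CPM in Smarcb1-RE. The B-cell list was carried by Ebf1 (92.8 CPM in control, 106 in SAHA and 152 in Smarcb1-RE), with Cd79b at or under 3 counts, the stromal and endothelial list by Pecam1 (150, 112 and 130 CPM), and Foxp3, which defines regulatory T cells, was at or under 3 counts throughout. The summed levels of the NK-cell list (at most 0.177 CPM) and of the myeloid list (at most 0.808 CPM) were low in every library. The mitochondrial share of counts was 3.02% to 3.53% in control, 3.37% to 3.76% in SAHA and 4.79% to 5.08% in Smarcb1-RE, and its part in the differences below was not tested. These are bulk libraries, in which fewer cells of a kind and less RNA per cell cannot be told apart.

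Against control, the tested genes were higher or not called in both treatments, but SAHA and Smarcb1-RE differed in which receptor genes rose. In SAHA, Pdcd1, Havcr2, Tigit, Tox and Tox2 passed the test as higher, and with Lag3 6 of the 6 fitted genes were called, where 32.6% of all tested genes were higher and 34.3% lower. In Smarcb1-RE, Pdcd1, Havcr2, Lag3, Tox and Tox2 were higher and Tigit was not called, where 39.2% of all genes were higher and 38.6% lower. No tested gene of the group was called lower than control in either comparison (edgeR), none was lower at an unadjusted p under 0.05, and DESeq2 gave the same counts of 0. Lag3 passed the filter only through its counts in SAHA, so the count of 6 is a description and the SAHA values of Lag3 are given without a test. Some calls depended on the setting. The calls of Havcr2 in SAHA, of Tox2 in Smarcb1-RE and of Lag3 in Smarcb1-RE were lost under 11 of 17, 10 of 17 and 7 of 14 alternative settings, respectively, whereas those of Pdcd1, Tox and, in SAHA, Tigit held under 17 of 17.

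**Figure D1:**
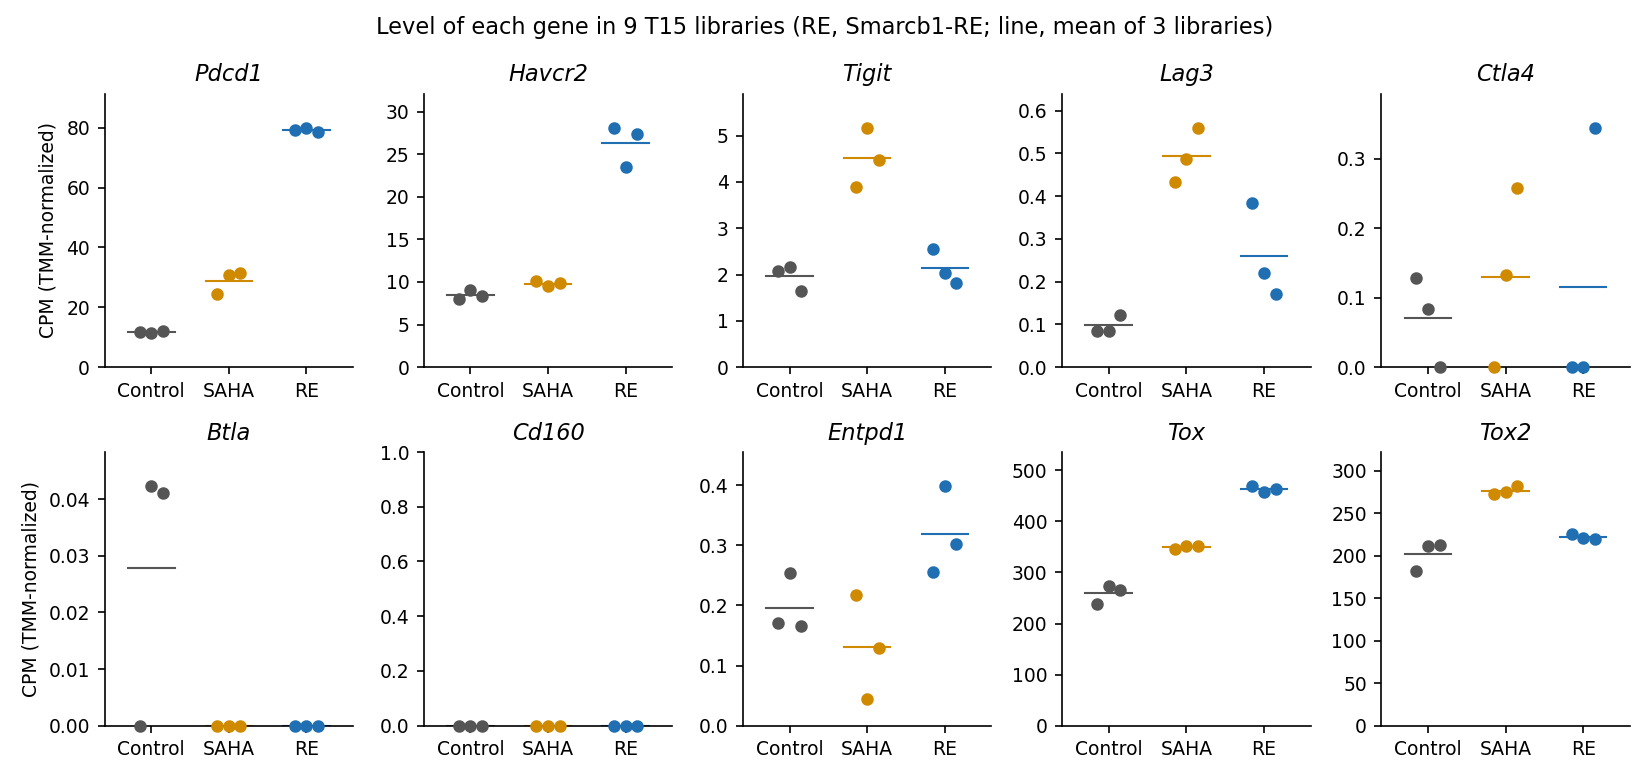
Level of each of the 10 genes (y axis, TMM-normalized CPM, each panel starting at 0 with its own scale) in the 9 libraries (x axis, group), with 1 point per library and a line at the mean of 3. Pdcd1 had a mean of 11.7 CPM for control, 28.8 CPM for SAHA and 79.2 CPM for Smarcb1-RE, Tigit and Tox2 were highest in SAHA, and Cd160 had no counts.

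Pdcd1 (ENSMUSG00000026285, chromosome 1, 94038305 to 94052553, minus strand, GRCm38) showed the widest range of the group. Its level was 11.7, 11.4 and 12.0 CPM under control, 24.4, 30.8 and 31.3 CPM with SAHA and 79.1, 80.0 and 78.6 CPM in Smarcb1-RE cells. The 3 groups did not overlap, and all Smarcb1-RE libraries lay well above the highest SAHA library. Against control, the log2 fold change was 1.30 (SE 0.09, a 2.46-fold increase, adjusted p = 5.84e-08, edgeR's quasi-likelihood test) in SAHA and 2.76 (SE 0.08, 6.76-fold, adjusted p = 2.15e-11) in Smarcb1-RE. The spread among Smarcb1-RE libraries was small (79.2 ± 0.716 CPM, SD, n = 3), and that among SAHA libraries wider (28.8 ± 3.82 CPM), with SAHA replicate 1 the lowest.

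Havcr2 (ENSMUSG00000020399, chromosome 11, 46454935 to 46481255, plus strand), which encodes the receptor Tim-3, was highest in Smarcb1-RE cells. It was at 7.95, 9.0 and 8.35 CPM in control, at 10.1, 9.5 and 9.82 CPM in SAHA and at 28.1, 23.5 and 27.4 CPM in Smarcb1-RE. The Smarcb1-RE libraries stood far above both other groups, and the lowest SAHA library was only slightly above the highest control library. The log2 fold change was 1.64 (SE 0.08, 3.12-fold, adjusted p = 1.92e-09, edgeR) in Smarcb1-RE and 0.22 (SE 0.09, 1.16-fold, adjusted p = 0.0483) in SAHA. The SAHA value was close to the threshold and missed it with DESeq2 (adjusted p = 0.0941), with a range of adjusted p from 0.0259 to 0.135 over its alternatives. In Smarcb1-RE, the value stayed between 1.58 and 1.80 in all 17.

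Tigit (ENSMUSG00000071552, chromosome 16, 43648867 to 43664146, minus strand), an inhibitory receptor that competes with the costimulatory receptor Cd226 for Pvr and Nectin2, was highest in SAHA. Its counts were 49, 51 and 40 in control, 90, 117 and 104 with SAHA and 60, 46 and 42 in Smarcb1-RE, or 1.96 ± 0.276, 4.52 ± 0.637 and 2.14 ± 0.384 CPM (SD, n = 3). Every SAHA library lay above all other libraries, and the Smarcb1-RE and control libraries overlapped. The log2 fold change was 1.20 (SE 0.19, 2.30-fold, adjusted p = 9.1e-05, edgeR) in SAHA. In Smarcb1-RE it was 0.12 (SE 0.20, adjusted p = 0.58), and its sign depended on single libraries, with -0.0014 without control replicate 3 and -0.04 without Smarcb1-RE replicate 1.

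Lag3 (ENSMUSG00000030124, chromosome 6), a receptor for MHC class II and Fgl1 that resembles Cd4, was near the detection limit. The libraries had 2, 2 and 3 counts in control, 10, 11 and 13 with SAHA and 9, 5 and 4 in Smarcb1-RE. The 3 groups did not overlap in these libraries, but a difference of 1 count separates SAHA from Smarcb1-RE and Smarcb1-RE from control. From the sums of 34, 18 and 7 counts, the ratio to control was 5.04 in SAHA (counting interval 2.20 to 13.5) and 2.66 in Smarcb1-RE (1.06 to 7.52). The fitted log2 fold change was 2.27 (SE 0.46) in SAHA, a description since these counts let the gene pass the filter. In Smarcb1-RE it was 1.36 (SE 0.51, adjusted p = 0.0274, edgeR), not called by DESeq2 (adjusted p = 0.117). Without SAHA replicate 3, Lag3 no longer passed the filter on low counts.

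The other receptors were barely detected. Ctla4, which competes with Cd28 for Cd80 and Cd86, had 3, 2 and 0 counts in control, 0, 3 and 6 with SAHA and 0, 0 and 8 in Smarcb1-RE. Btla had 0, 1 and 1 counts in control and 0 in the 6 treated libraries, and Cd160 had 0 counts in all 9, which allows up to 3 counts in each. Entpd1 had 4, 6 and 4 counts in control, 5, 1 and 3 with SAHA and 6, 9 and 7 in Smarcb1-RE. The Entpd1 ratio of summed counts to control was 1.62 in Smarcb1-RE (counting interval 0.794 to 3.43) and 0.667 in SAHA (0.255 to 1.65), both intervals including 1. Against SAHA, the Entpd1 ratio in Smarcb1-RE was 2.43 (1.08 to 6.01). The Entpd1 libraries of Smarcb1-RE (0.256 to 0.398 CPM) overlapped neither those of SAHA (0.0442 to 0.217 CPM) nor those of control (0.165 to 0.254 CPM). Each comparison gave p = 0.1 in an exact permutation test, the smallest that 3 against 3 allow. Control replicate 2 and Smarcb1-RE replicate 1 both had 6 counts, so the separation from control rests on the scaling of libraries. For Ctla4 the intervals, 0.562 to 7.09 in SAHA and 0.477 to 6.42 in Smarcb1-RE, also allow changes in either direction. Differences in Ctla4, Btla and Cd160 were not detectable at this depth.

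Tox had between 5615 and 10982 counts in a library and Tox2 between 4278 and 6543, so counting error is small for both. Tox (ENSMUSG00000041272, chromosome 4, 6686353 to 6991557, minus strand) was at 239, 274 and 265 CPM in control, 346, 351 and 352 CPM in SAHA and 469, 457 and 463 CPM in Smarcb1-RE. The groups did not overlap and followed the same order as Pdcd1. The log2 fold change was 0.43 (SE 0.05, 1.35-fold, adjusted p = 5.27e-06, edgeR) in SAHA and 0.84 (SE 0.05, 1.78-fold, adjusted p = 6.09e-09) in Smarcb1-RE. Tox2 (ENSMUSG00000074607, chromosome 2, 163203125 to 163324170, plus strand) was at 182, 211 and 213 CPM in control, 273, 275 and 282 CPM in SAHA and 226, 221 and 220 CPM in Smarcb1-RE. Tox2 was thus highest in SAHA, with Smarcb1-RE libraries just above the highest control libraries. Its log2 fold change was 0.45 (SE 0.05, 1.37-fold, adjusted p = 9.17e-06, edgeR) in SAHA and 0.14 (SE 0.05, 1.10-fold, adjusted p = 0.0333) in Smarcb1-RE. Control replicate 1 was the lowest control library for both genes, and without it the Smarcb1-RE value of Tox2 was 0.062 and not called.

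Smarcb1-RE and SAHA libraries were compared directly to test whether the 2 treatments differed for each gene. Pdcd1, Havcr2 and Tox were higher in Smarcb1-RE and Tigit, Tox2 and Lag3 were higher in SAHA, where 37.7% of all tested genes were higher and 36.8% lower in Smarcb1-RE. The log2 difference of Smarcb1-RE from SAHA was 1.46 (SE 0.07, adjusted p = 1.77e-09, edgeR) for Pdcd1 and 1.42 (SE 0.08, adjusted p = 6.83e-09) for Havcr2. For Tigit it was -1.08 (SE 0.19, adjusted p = 0.000166, edgeR), a level 0.474 times that in SAHA. Tox was 1.32-fold higher in Smarcb1-RE (log2 0.40, SE 0.05, adjusted p = 5.85e-06, edgeR) and Tox2 was at 0.803 times its level in SAHA (log2 -0.32, SE 0.05, adjusted p = 0.000155). The Lag3 difference of -0.91 (SE 0.38) is likewise a description, and its call was lost in 12 of 14 alternatives, while the calls of the other 5 genes were kept in all 17. When libraries were scaled by their totals alone, the median of all genes was 0.17 in Smarcb1-RE against control in place of 0.014, and 0.18 against SAHA in place of 0.017, and 61.0% and 62.1% of calls were higher in place of 50.4% and 50.6%. Under that scaling, Tigit was at -0.92 and Tox2 at -0.16 against SAHA, and Tox2 at 0.30 against control, with the same directions as before.

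**Figure D2:**
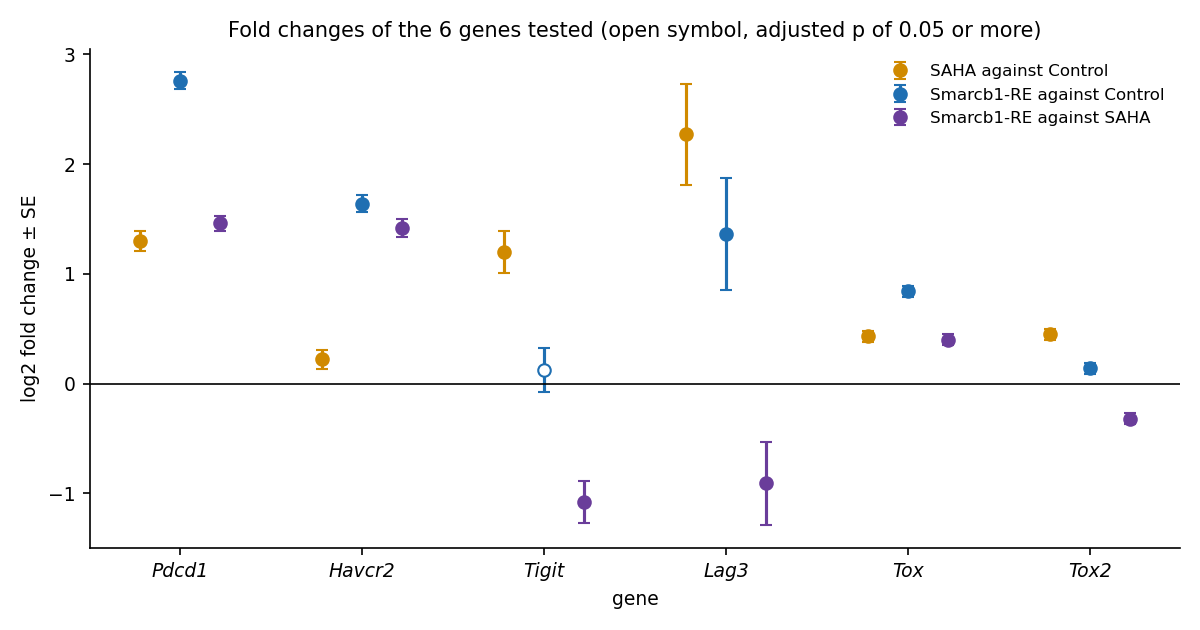
Log2 fold change (y axis) with its standard error for the 6 tested genes (x axis) in the 3 comparisons, from 1 edgeR fit to 9 libraries, where an open symbol marks an adjusted p of 0.05 or more. Pdcd1, Havcr2 and Tox lie above 0 in all 3 comparisons, while Tigit, Lag3 and Tox2 lie below 0 for Smarcb1-RE against SAHA.

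Ratios of counts within a library do not depend on how libraries are scaled. Tox to Tox2 was 1.31, 1.30 and 1.25 in control, 1.27, 1.27 and 1.25 with SAHA and 2.07, 2.07 and 2.11 in Smarcb1-RE. The libraries of SAHA and control overlapped in this ratio (1.26 ± 0.0123 against 1.29 ± 0.0345 in control, SD, n = 3, two-sided exact permutation test, p = 0.4), and all Smarcb1-RE libraries were above all others (p = 0.1, exact permutation test, the smallest that 3 against 3 libraries allow). Pdcd1 to Tigit was 6.08 ± 1.07 in control, 6.40 ± 0.525 in SAHA (exact permutation test, p = 0.6) and 37.9 ± 6.35 in Smarcb1-RE (p = 0.1, n = 3). Pdcd1 to Havcr2 was instead at 1.39 ± 0.111 for control cells, 2.95 ± 0.464 for SAHA and 3.03 ± 0.329 for Smarcb1-RE (SD, n = 3), without overlap between either treatment and control (exact permutation test, p = 0.1 each). Pdcd1 to Tox differed between all 3 groups without overlap, at 0.0416 to 0.0492 in control, 0.0706 to 0.0888 in SAHA and 0.169 to 0.175 in Smarcb1-RE. The ratio of Pdcd1 to Cd274, the gene of its ligand PD-L1, was 0.563 to 0.595 in control, 0.792 to 0.940 in SAHA and 4.08 to 4.35 in Smarcb1-RE.

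**Figure D3:**
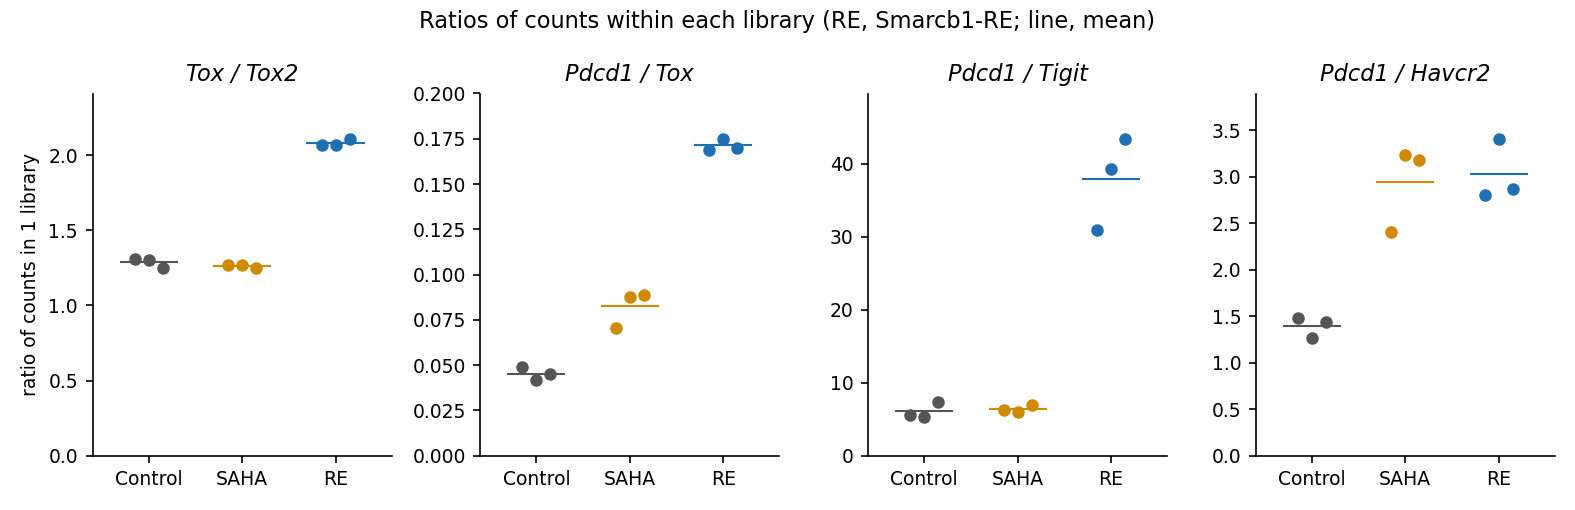
Ratios of the counts of 2 genes within each library (y axis, starting at 0) by group (x axis), with 1 point per library and a line at the mean. The Tox to Tox2 and Pdcd1 to Tigit ratios of Smarcb1-RE (means 2.08 and 37.9) stand above those of control and SAHA, which overlap, and the Pdcd1 to Havcr2 ratio is higher in both treatments than in control.

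Levels of different genes were compared as CPM per kilobase (kb) of exon. In control, Tox2 (59.4 ± 5.10) and Tox (34.1 ± 2.42) stood above Pdcd1 (6.07 ± 0.155), Havcr2 (3.10 ± 0.195) and Tigit (2.13 ± 0.301, SD, n = 3), and Lag3 (0.0463 ± 0.0106), Entpd1, Ctla4 and Btla followed, each overlapping the next in its libraries. In SAHA, the order of the lower receptors changed, with Tigit (4.24 to 5.63) above Havcr2 (3.49 to 3.73). In Smarcb1-RE, Pdcd1 reached 41.1 ± 0.371, closer to Tox (60.8 ± 0.787) and Tox2 (65.3 ± 0.998) than in the other groups, and Havcr2 (9.67 ± 0.920) was again above Tigit (2.32 ± 0.418). In Smarcb1-RE, the order of Tox and Tox2 rests on the length used, and so does the smaller difference between Pdcd1 and Tox. Tox has 7609 bases of exon in 4 annotated transcripts but its longest transcript has 3961 bases, and with that length Tox was at 65.5 ± 4.65 and Tox2 at 68.5 ± 5.89 in control, with Tox2 above Tox in each of the 3 libraries. Tox2 was also above Tox in SAHA (92.5 to 95.6 against 87.4 to 88.9), whereas in Smarcb1-RE Tox was at 117 ± 1.51 and Tox2 at 75.4 ± 1.15.

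The ligands of these receptors were measured in the same cells. In each treatment, 10 of 13 ligand genes were tested. Of all tested genes, 32.6% were higher and 34.3% lower in SAHA, and 39.2% and 38.6% in Smarcb1-RE. In SAHA, 6 ligand genes were higher and 2 lower (median log2 fold change 0.60, against 0.0027 over all tested genes). Nectin2, a ligand of Tigit, was at 2.81 (SE 0.15) in SAHA, Cd274 at 0.69 (SE 0.06) and Cd86 at 0.69 (SE 0.05). In Smarcb1-RE, 5 ligand genes were higher and 2 lower (median 0.58, against 0.014 over all genes). Cd86, a ligand shared by Cd28 and Ctla-4, rose from 22.3 ± 0.691 CPM to 127 ± 2.74 CPM (SD, n = 3), a log2 fold change of 2.51 (SE 0.05, adjusted p = 5.96e-13, edgeR), Nectin2 rose by 1.14 (SE 0.16) and Tnfrsf14, the ligand of Btla and Cd160 also called Hvem, by 0.94 (SE 0.10). Cd274 was 20.4 ± 0.835 CPM in control, 33.0 ± 1.99 in SAHA and 18.7 ± 0.579 in Smarcb1-RE, where its log2 fold change of -0.12 (SE 0.06) was not called (adjusted p = 0.0891, edgeR). Pdcd1lg2, the gene of the other PD-1 ligand, had at most 1 count in a library.

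Of the receptors that compete with or oppose the inhibitory ones, 5 of 8 were tested and 4 were higher in each treatment (medians 0.36 in SAHA and 0.67 in Smarcb1-RE, against 0.0027 and 0.014 over all tested genes, of which 32.6% and 39.2% were higher). Cd28, the costimulatory receptor that Ctla-4 antagonises, rose by 0.46 (SE 0.04) in SAHA and by 0.39 (SE 0.04) in Smarcb1-RE. Tnfrsf9 (4-1BB) rose by 0.37 (SE 0.04) in SAHA and by 0.67 (SE 0.04) in Smarcb1-RE. Cd96, a receptor for Pvr like Tigit, rose by 0.69 (SE 0.04) in Smarcb1-RE and by 0.09 (SE 0.04) in SAHA. Of 12 other inhibitory receptor genes, only Vsir, Cd200r1 and Lair1 passed the filter. Vsir (Vista) was 0.81 higher in SAHA (SE 0.05) and Cd200r1 was 0.84 lower on the log2 scale, at 0.558 times its control level, whereas Cd200r1 rose by 0.44 (SE 0.05) in Smarcb1-RE. Lair1, a receptor for collagen at a low level (average log2 CPM 0.49), rose by 1.65 (SE 0.23) in Smarcb1-RE.

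The signalling genes below the receptors were called in both directions. The share called higher was near that of all genes (32.6% in SAHA and 39.2% in Smarcb1-RE). The share called lower was above that of all genes (34.3% and 38.6%), among only 12 genes. Of 12 tested, 4 were higher and 6 lower in SAHA (median -0.035), and 5 were higher and 6 lower in Smarcb1-RE (median -0.044). Dgka, a diacylglycerol kinase that limits signals from the T-cell receptor, rose by 1.86 (SE 0.09) in SAHA and by 1.95 (SE 0.09) in Smarcb1-RE, and Sh2d2a, an adaptor that binds Lck, by 1.13 (SE 0.05) and 0.79 (SE 0.05). Ptpn6, the phosphatase Shp-1, fell from 42.6 ± 0.546 CPM in control to 24.5 ± 0.282 CPM in SAHA (log2 fold change -0.80, SE 0.05) and 26.4 ± 1.14 CPM in Smarcb1-RE (-0.69, SE 0.05). Sla, an adaptor that lowers receptor levels, had a log2 fold change of -0.80 (SE 0.05) in SAHA and -0.34 (SE 0.05) in Smarcb1-RE. In the adenosine pathway to which Entpd1 belongs, 8 of 10 genes were tested, of which 5 were higher and 2 lower in SAHA (median 0.28, with 32.6% of all genes higher and 34.3% lower) and 2 higher and 4 lower in Smarcb1-RE (median -0.067, with 39.2% and 38.6% of all genes). Ada, which removes adenosine, fell in both (-0.79, SE 0.11, and -1.03, SE 0.12), Enpp1 rose in SAHA (1.74, SE 0.19) and Dpp4 fell in Smarcb1-RE (-2.24, SE 0.21).

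Transcription factors linked to exhaustion other than Tox and Tox2 were counted likewise. Of 19 tested, 10 were higher and 2 lower in SAHA (median 0.37), and 10 were higher and 9 lower in Smarcb1-RE (median 0.19). Of all tested genes, 32.6% were higher and 34.3% lower in SAHA, and 39.2% and 38.6% in Smarcb1-RE, so that the Smarcb1-RE split is near that of all genes. The orphan nuclear receptor gene Nr4a3, an early target of the T-cell receptor, was at 11.7 ± 1.84 CPM under control and rose to 54.6 ± 2.77 CPM with SAHA and 61.0 ± 1.53 CPM in Smarcb1-RE (log2 fold changes 2.22, SE 0.08, and 2.38, SE 0.08). Nr4a1 rose by 1.63 (SE 0.05) in SAHA and by 0.67 (SE 0.05) in Smarcb1-RE. Nfatc2 had a log2 fold change of -1.15 (SE 0.11) in SAHA and -0.25 (SE 0.10) in Smarcb1-RE. Tcf7, which encodes the factor of memory-like and precursor-exhausted T cells, was at 282 ± 10.6 CPM in control, 262 ± 9.43 in SAHA and 47.2 ± 2.13 in Smarcb1-RE, a log2 fold change of -2.58 (SE 0.05, adjusted p = 8.9e-13, edgeR). Bcl6 rose by 1.17 (SE 0.12) in Smarcb1-RE and by 0.34 (SE 0.13) in SAHA. Tox4, of the Tox family, was at 132 ± 1.91 CPM in control, 173 ± 3.75 in SAHA and 85.6 ± 0.623 in Smarcb1-RE. Its log2 fold change was 0.40 (SE 0.04) in SAHA and, unlike that of Tox, below 0 in Smarcb1-RE (-0.62, SE 0.04). Tox3, also of that family, had at most 1 count in a library.

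Markers of precursor and of terminally exhausted cells overlap with the lists above, as Tcf7 and Cd28 do. Of 11 precursor markers tested, 6 were higher and 1 lower in SAHA (median 0.46), and 7 were higher and 4 lower in Smarcb1-RE (median 0.39), where 32.6% and 34.3% of all genes were higher and lower in SAHA and 39.2% and 38.6% in Smarcb1-RE. In Smarcb1-RE, Slamf6, a receptor of precursor-exhausted cells, rose from 4.35 ± 0.435 CPM to 35.4 ± 1.55 CPM (log2 fold change 3.02, SE 0.10), whereas Tcf7 and Il7r, the receptor for interleukin 7 (-2.35, SE 0.06), fell. Slamf6 also rose in SAHA, by 0.80 (SE 0.11). Unlike in Smarcb1-RE, Il7r rose in SAHA (0.43, SE 0.05), and Ccr7 rose in SAHA (0.53, SE 0.05) but fell in Smarcb1-RE (-2.22, SE 0.06). Of 7 terminal markers tested, 6 were higher and 0 lower in SAHA (median 0.44, with 32.6% of all genes higher and 34.3% lower), among them the chemokine gene Ccl3 (1.91, SE 0.10). In Smarcb1-RE, 2 were higher and 4 lower (median -0.31, with 39.2% and 38.6% of all genes), among them Prf1, which encodes perforin, with 19.7 ± 2.0 CPM in control and 2.70 ± 0.251 CPM in Smarcb1-RE (log2 fold change -2.87, SE 0.10). Gzmb, the gene of granzyme B, had at most 1 count in a library, and Cd38 and Cd101, surface markers of terminal exhaustion, did not pass the filter.

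**Figure D4:**
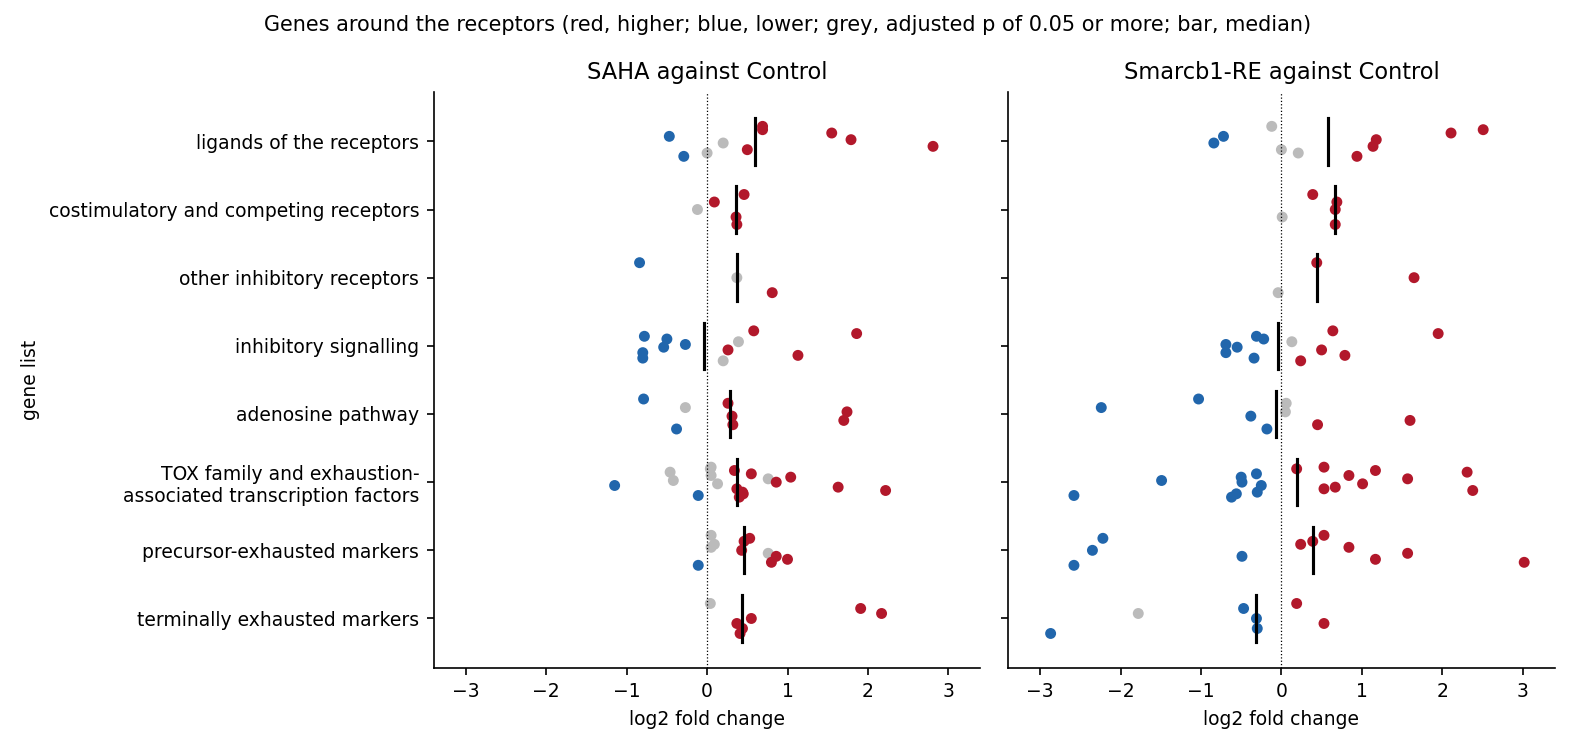
Log2 fold change (x axis) of each tested gene of 8 lists (y axis) in SAHA and in Smarcb1-RE against control, with 1 point per gene and a bar at the list's median. The terminally exhausted markers have a median of 0.44 in SAHA and -0.31 in Smarcb1-RE, and the signalling list is split around 0 in both.

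The positions of the genes on their chromosomes were also considered. Medians were taken over the other tested protein-coding genes of a chromosome that averaged 1 log2 CPM or more. The 673 such genes on chromosome 4, where Tox lies, had a median log2 fold change of 0.29 in Smarcb1-RE against control. Against SAHA, their median was 0.38. Relative to these medians, Tox in Smarcb1-RE was 0.55 higher than in control and 0.03 higher than in SAHA. Its difference between the treatments was thus close to the median of these 673 genes. The part of the chromosome in the level of Tox was not tested. For Pdcd1, Havcr2, Tigit, Lag3 and Tox2, the chromosome medians lay between -0.23 and 0.12, and subtracting them turned no direction. No protein-coding gene lay within 200 kb of Tox. The nearest tested neighbour of Tigit, Zbtb20 (6.26 kb away, opposite strand), was instead highest in Smarcb1-RE, at 16.6 CPM in control, 19.0 in SAHA and 86.6 in Smarcb1-RE (log2 fold change 2.38, SE 0.06, in Smarcb1-RE). Med7 (12.2 kb from Havcr2, same strand) was at 24.7 CPM in SAHA and 21.4 CPM in Smarcb1-RE, with a log2 fold change of -0.22 (SE 0.08) in Smarcb1-RE. Jph2, 12.1 kb from Tox2 on the opposite strand, fell in SAHA (-1.85, SE 0.18) and in Smarcb1-RE (-3.23, SE 0.20) while Tox2 rose, and Gal3st2c, 21.2 kb from Pdcd1 on the opposite strand, rose with it in SAHA (1.57, SE 0.48) and in Smarcb1-RE (2.31, SE 0.45) at levels of 0.182 to 0.920 CPM.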

How the data were processed

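The authors deposited estimated counts per Ensembl gene for 9 libraries, neither normalized nor pooled, with fractions in 52.4% of the nonzero values. Libraries came from a directional kit and were sequenced as single-end reads, and the submitters' processing notes name FastQC 0.11.8, MultiQC 1.7, Salmon 0.14.1, DESeq2 1.22.2 and GRCm38. The strand setting, the annotation release and the step from transcripts to genes are not given in the sources used here. How Salmon divides reads among overlapping or similar genes bears on Tox (an antisense gene overlaps it), Entpd1 and Ctla4 (pseudogenes) and Cd160 (Pdzk1). Names and positions came from GENCODE M21 (GRCm38), which held 99.3% of the identifiers, and promoters from RefSeq (GRCm38.p6).

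Counts were rounded, filtered (filterByExpr, minimum count 10) and fitted in 1 model of 3 groups with edgeR 4.0.16 in R 4.3.3 (TMM, glmQLFit, glmQLFTest, Benjamini-Hochberg over all 13697 genes, adjusted p under 0.05). Standard errors were obtained by dividing the size of each log2 fold change by the root of its F statistic. CPM use TMM-scaled totals of the tested genes. Counting intervals of ratios are exact 95% intervals and, like the floor of 3 counts, cover counting error only. The calculations were tested on simulated data. The study's methods call the 3 libraries of a group biological replicates, and whether cultures were separate is not stated, so p-values measure the spread between these libraries. No pair agreed within sampling noise (chi-square per gene 2.07 to 14.1). The highest values, 12.5 and 14.1, were those of control replicate 1 against control replicates 2 and 3. Control replicates 2 and 3 gave 3.47, and pairs within SAHA or Smarcb1-RE at most 4.55.

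The 10 genes and all lists were chosen with earlier results of these data known, so that they are described and not tested as sets. Of each list and comparison, at most 3 called genes are named, those furthest from 0 once genes averaging under 1 log2 CPM were set aside. Further genes (Cd274 in Smarcb1-RE, Tox3, Tox4, Pdcd1lg2, Gzmb, Cd38, Cd101, Lair1, Tcf7 in SAHA) were added after their values were seen. Values of Ptpn6, Bcl6, Cd96 and Il7r in SAHA, and of Sla, Nr4a1, Nfatc2 and Cd28 in Smarcb1-RE, were added likewise. Neighbours are protein-coding genes within 200 kb. Alternatives were DESeq2 1.42.0 (no independent filtering), RLE factors, library totals only, no filter, a minimum of 10 counts per library, fits of each pair of groups, a replicate block, adjusted p under 0.01 and leaving out each library.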

Additional observations from a re-analysis of the deposited data

How the results depend on the processing

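Of 298 combinations of a tested gene, a comparison and an alternative, 256 kept direction and side of the threshold, 40 lost the call and 2 turned direction. All 40 concerned Lag3, Havcr2 in SAHA or Tox2 in Smarcb1-RE. Lag3 passed the filter only through its counts in SAHA. Its part in these numbers, and in the numbers of called genes below, is therefore a description. The 2 reversals were Tigit in Smarcb1-RE, never called (-0.0014 and -0.04, range -0.04 to 0.23 when 1 library was left out). In Smarcb1-RE, the number of genes called higher fell from 5 to 3 with no filter on low counts, with separate fits (where Lag3 was not tested) and at an adjusted p under 0.01, and was 3 to 5 when 1 library was left out, with 3 without control replicate 1, SAHA replicate 3 or Smarcb1-RE replicate 1. The same range was 4 to 6 for genes higher in SAHA, 3 to 3 and 2 to 3 for genes higher and lower in Smarcb1-RE than in SAHA, and 0 to 0 for genes lower than control. The Smarcb1 values ranged from 4.52 to 5.36 and, in SAHA, from 0.04 to 1.14, and with at least 10 counts in every library neither Smarcb1 nor Lag3 could be fitted.

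Same-numbered libraries did not deviate together (correlations across genes -0.0717 to 0.0366, against -0.0361 to 0.0506 for other pairs). Whether the numbers pair libraries is not stated, and these correlations cannot decide it. With the replicate block, 5 genes were called higher in SAHA, 4 in Smarcb1-RE and 3 in Smarcb1-RE against SAHA, where 2 were lower, and Smarcb1 was at 4.90 and 0.65. The calls lost with it were Havcr2 in SAHA (adjusted p = 0.0622, edgeR) and Lag3 in Smarcb1-RE against control (0.0515) and against SAHA (0.0793). Depth limits Lag3, Ctla4, Btla, Cd160 and Entpd1, which had at most 13 counts in a library.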

Other observations

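The genes whose log2 CPM followed those of the 3 receptor genes with the widest spread between group means, among those averaging 1 log2 CPM or more (which leaves out Lag3), most closely were looked up among 11319 genes over the 9 libraries. The libraries fall into 3 groups, so that Pearson's r measures mainly the pattern of 3 group means, and it is given as a measure of likeness. For Pdcd1 they were Rasa3 (r = 0.9988), Sfi1 (r = 0.9978) and Itpr2 (r = 0.9977), and 78 genes had an r over 0.99. Rasa3, a GTPase-activating protein for Ras and Rap, was at 10.6 CPM in control, 15.9 in SAHA and 25.2 in Smarcb1-RE, and Itpr2, a calcium channel of the endoplasmic reticulum, at 8.50, 13.4 and 22.0. For Havcr2 they were Lgals8, Dus2 and Mctp2 (r = 0.9979, 0.9974 and 0.9961), with 46 genes over 0.99. Mctp2 was at 26.0 CPM in control, 33.1 in SAHA and 107 in Smarcb1-RE, and Lgals8, which encodes galectin-8, at 33.6, 36.6 and 59.3. For Tigit they were Dhrs1, Klhl7 and Dpf1 (r = 0.9825, 0.9815 and 0.9795), and no gene had an r over 0.99. Dpf1, a neuronal subunit of the BAF complex, was at 1.23 CPM in control, 4.14 in SAHA and 1.43 in Smarcb1-RE.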
